A study of Mus musculus with 21 samples.

Results

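The genes described here flank Nr1h4, the gene targeted in the knockout, on mouse chromosome 10. They are the genes of the deposited table that start between 84450000 and 94530000 (mm10), about 5 Mb to either side of Nr1h4 at 89454234 to 89533585. Of 121 genes in that window, 4 were left out by name, Nr1h4 itself among them. Of the 32643 genes in the table this left 66 on the proximal (lower-coordinate) side and 51 on the distal side. The count filter kept 81 of them, 49 proximal and 32 distal, and 64 of these were protein coding. The other 36 had 1 to 132 reads each over all 21 libraries, and 6 of those were protein coding.

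Whole testes were taken at postnatal day 10, 1 mouse per library. All animals carried a mixed background of 129sv and C57Bl6, and they were either wild type (WT) or knockout (KO) for FXRα, the product of Nr1h4. Within each genotype 1 group received vehicle, 1 bisphenol A (BPA, a plastics monomer) and 1 stigmasterol (a plant sterol), with 4 WT or 3 KO animals per group. The labels give neither the doses nor the deleted part of Nr1h4, the litters or the number of backcrosses.

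FXRα is a nuclear receptor for bile acids that binds DNA together with RXR, best known for bile acid control in liver and intestine and, in the testis, for restraining steroid synthesis. In mice made by gene targeting, DNA around the targeted gene tends to stay linked to the altered allele through later crosses and can keep the sequence of the strain in which the allele was made. In such animals the genotype of nearby genes and the loss of the targeted gene cannot be told apart from expression data of this design. The labels do not say from which strain the DNA around Nr1h4 came in either genotype, and the part of linked sequence differences in any value below was not tested.

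The libraries held 35459523 to 61498855 counted reads, and the genes around Nr1h4 took 0.391% to 0.435% of them. Germ cell and Sertoli cell marker genes were detected in every library. Some libraries stood apart. Cdh16, a cadherin of kidney and genital duct epithelium, reached 10 CPM (counts per 1000000 reads) or more in 9 libraries, 3 WT (T81, T60 and T75) and 6 KO (T1, T110, T83, T117, T10 and T93). Alb, the liver's albumin, exceeded 100 CPM in WT BPA animal T61 only, at 578 CPM, and was next highest in T75, at 58.6 CPM. Over 5 fat marker genes the summed level was 9.24 to 20.6 CPM in WT and 10.2 to 94.6 in KO. It was highest in KO BPA animal T117, and 4 of the 5 were called higher in the KO. The part of fat cells in the values below was not tested. WT BPA animals T74 and T75 had values near those of the KO animals for some of the genes below, and values without these 2 libraries stand beside the results that move with them. Other WT libraries also had such values. Of the 18 genes called below, T75 had 9 inside the KO range, T79 had 7, and T61, T74 and T98 had 6 each. In a fit without T74 and T75, 16 of the 18 genes called below for genotype were still called by edgeR, beside 10.5% of all genes. These 2 animals were left out after their values were seen to lie near the KO, which favours keeping the calls. The 16 therefore add no support. A difference is "called" where edgeR's quasi-likelihood test gave an adjusted p under 0.05 over all 20254 genes tested. In RNA from whole testes, fewer cells of a type and less RNA per cell cannot be told apart.

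Nr1h4 was read at low depth, with 7 to 40 reads per library. Its level in the 12 WT libraries ran from 0.241 CPM over a median of 0.553 to 0.868, and in the 9 KO libraries from 0.172 over 0.308 to 0.492. The ranges overlapped, the averaged log2 fold change, KO minus WT, was -0.78 (SE 0.23), and edgeR's adjusted p was 0.030. Reads of Nr1h4 were thus present in every KO library, and with the deleted part not given they check the labels only loosely.

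With genotype averaged over the 3 treatments, 18 of the 81 tested genes around Nr1h4 were called (22.2%), against 13.9% of all genes tested. By side, 14 of 32 distal genes were called (43.8%) and 4 of 49 proximal genes (8.16%). In the KO 9 rose and 9 fell, which is 11.1% each, beside 6.85% of all genes called higher and 7.07% called lower. Of the 81, 6 were called and differed at least 2-fold (7.41%), beside 2.67% of all genes, and all 6 were distal. Of these, 4933408J17Rik, Gm27544 and Rmst were higher in the KO, and 4930485B16Rik, Usp44 and Hal lower. Gm27544 lies inside Rmst, and the values of both depended on the libraries with high Cdh16, as given below. The median log2 fold change was 0.001 over the 81 genes and 0.013 over all genes. By side, 1 proximal gene was called higher and 3 lower, and 8 distal genes were called higher and 6 lower. The median absolute log2 fold change was 0.237 over the distal genes, 0.091 over the proximal genes and 0.117 over all genes.

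**Figure D1:**
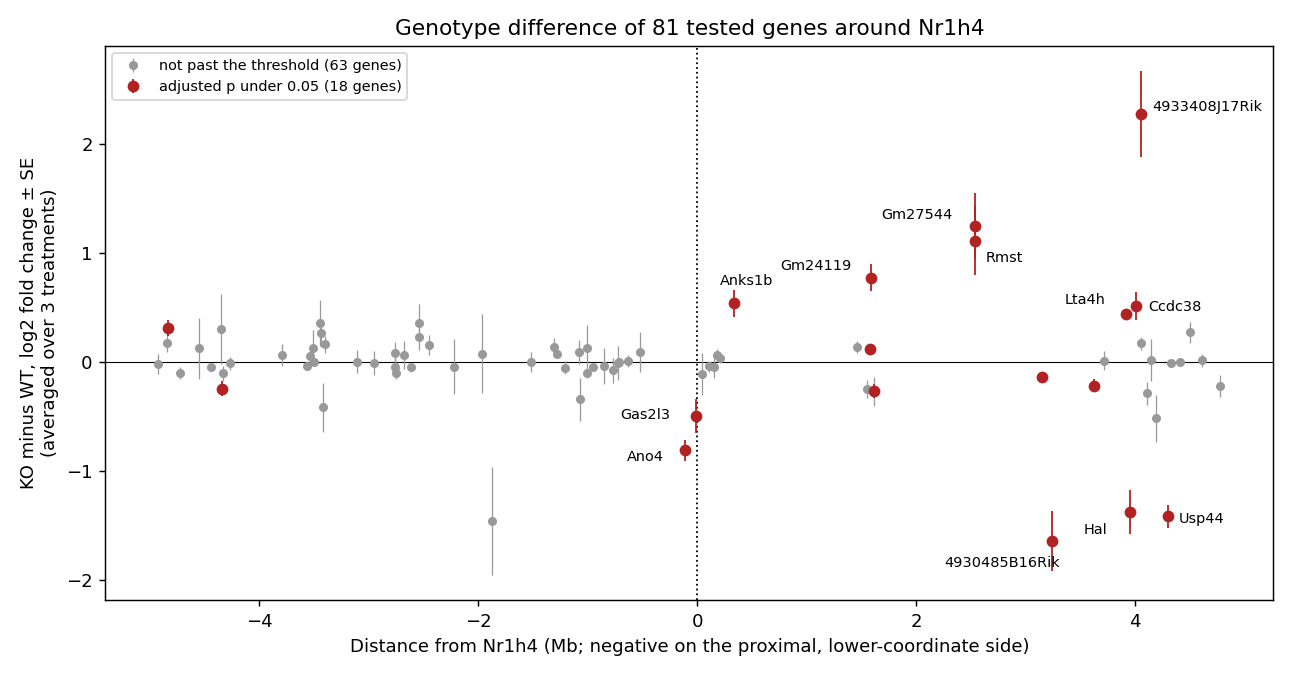
Log2 fold change, KO minus WT averaged over treatments, with its standard error (y axis) for the 81 tested genes by distance from Nr1h4 in Mb (x axis, proximal side negative). Red points are the 18 genes with an adjusted p under 0.05; the 6 of at least 2-fold lie 2.54 to 4.30 Mb on the distal side.

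Distance from Nr1h4 did not order the calls simply. Within 1 Mb, 2 of 9 proximal and 1 of 6 distal genes were called. Between 1 and 2.5 Mb the counts were 0 of 12 proximal and 3 of 6 distal, and between 2.5 and 5 Mb they were 2 of 28 proximal and 10 of 20 distal. Beyond the window the share on the distal side was 17.4% at 5 to 10 Mb (4 of 23), 8% at 10 to 20 Mb (2 of 25) and 13.6% farther out (25 of 184). On the proximal side it was 10% at 5 to 10 Mb (16 of 160), 10.9% at 10 to 20 Mb and 12.6% farther out. The rest of chromosome 10 had 12.3% of its genes called and the other chromosomes 14%. The distal stretch from 1 to 5 Mb thus held the highest shares of all the intervals, in bins of 6 and 20 genes, and these shares were not tested against each other. They count genes that lie inside one another separately. Gm24119 inside Slc25a3 and Gm27544 inside Rmst are among the called genes there, with the genes that hold them. The tested genes just inside and just outside each edge of the window were not called. On the proximal edge the log2 fold change was -0.02 for Ckap4 inside and -0.05 for Nuak1 outside. On the distal edge it was -0.22 for Tmcc3 inside (SE 0.10, edgeR adjusted p = 0.16) and -0.14 for Tmcc3os outside.

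**Figure D2:**
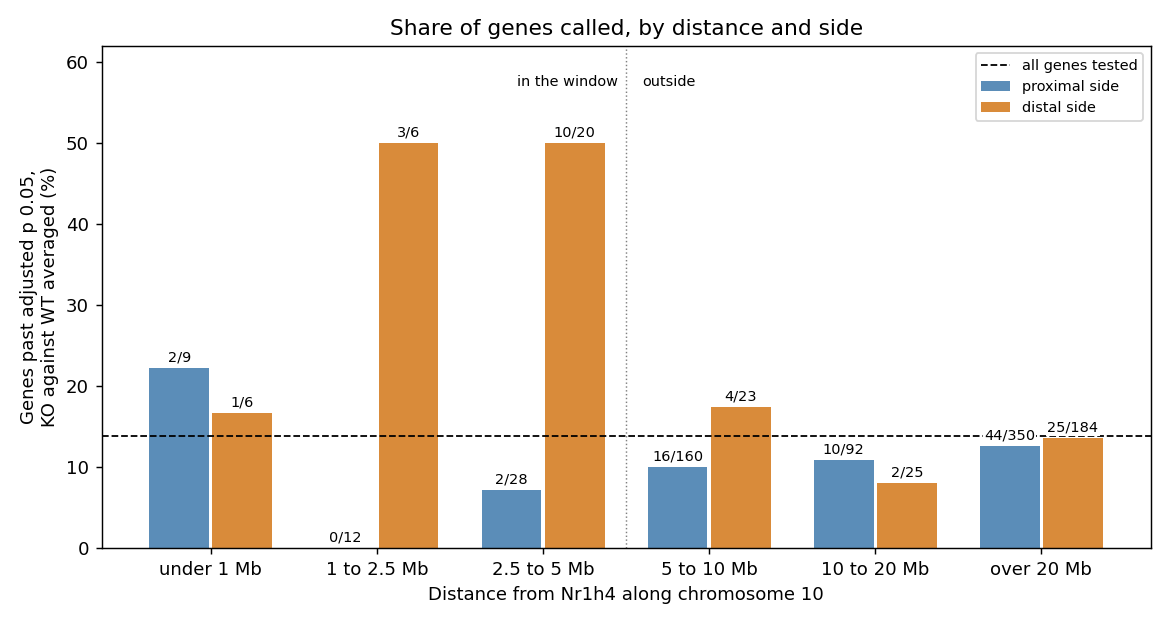
Percent of tested chromosome 10 genes called for genotype (y axis) by distance from Nr1h4 and side (x axis), with called and tested genes above each bar; the dashed line is the 13.9% of all genes. Distal genes at 1 to 5 Mb stand at 50%, and the other bars lie between 0% and 22.2%.

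The genes nearest to Nr1h4 differed in what they did. On the proximal side, Gas2l3, a linker of actin and microtubules that acts in cytokinesis, ends 10.3 kb from Nr1h4. It ran from 8.62 CPM over a median of 13.8 to 21.4 in WT and from 8.43 over 9.67 to 13.8 in KO. The KO range held 6 WT libraries, and the log2 fold change was -0.49 (SE 0.16, edgeR adjusted p = 0.040). Leaving out any 1 of 13 libraries ended this call, among them T25, without which the adjusted p was 0.083. It also ended without T74 and T75 (-0.44, adjusted p = 0.11) and with limma-voom (adjusted p = 0.071). Ano4, an anoctamin of the family of calcium-activated channels and lipid scramblases, lies 0.11 Mb away.

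Ano4 was at 14.9, 13.7, 11.2 and 18.4 CPM in the WT vehicle animals (T66, T71, T79, T81), 12.4, 14.0, 14.9 and 15.9 in WT BPA (T60, T75, T61, T74) and 15.1, 15.1, 15.8 and 20.1 in WT stigmasterol (T78, T98, T118, T119). In the KO it was at 7.51, 9.22 and 9.61 CPM in vehicle (T1, T90, T110), 8.57, 7.47 and 11.6 in BPA (T25, T83, T117) and 8.24, 7.57 and 7.85 in stigmasterol (T10, T15, T93). A single WT library, T79, reached into the KO range, whose upper end was KO BPA animal T117. The averaged log2 fold change was -0.81 (SE 0.10), a 1.75-fold lower level, with an adjusted p of 1.6e-05 by edgeR.

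Of the 3 nearest tested genes on each side, the remaining 4 were not called. Slc5a8, a monocarboxylate transporter, had a log2 fold change of 0.09 (SE 0.19). On the distal side, Slc17a8, a vesicular glutamate transporter 0.04 Mb away, stood at -0.11 (SE 0.19). Scyl2, a protein of clathrin-coated vesicles, was at -0.04 (SE 0.05), and 1500026H17Rik at -0.05 (SE 0.10). Anks1b, a scaffold protein of synapses 0.34 Mb away, was the nearest distal gene called: it ran from 1.59 CPM over 2.91 to 4.08 in WT and from 3.32 over 4.02 to 5.03 in KO. Its log2 fold change was 0.54 (SE 0.13, edgeR adjusted p = 0.0080), and 3 WT libraries, all given BPA, lay inside the KO range.

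The other called proximal genes lay near the far edge. Gm17249, a long noncoding RNA that overlaps the RNA polymerase III subunit gene Polr3b, was 0.31 higher on the log2 scale (SE 0.08, edgeR adjusted p = 0.011) at 4.83 Mb and was the called proximal gene farthest from Nr1h4. Tmem263, a small membrane protein gene, was at -0.24 (SE 0.07, edgeR adjusted p = 0.028), a call that ended without WT stigmasterol animal T119 (adjusted p = 0.050) and without T74 and T75 (adjusted p = 0.059).

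Usp44 had the smallest adjusted p of the window and was the called distal gene farthest from Nr1h4, at 4.30 Mb (93831555 to 93848524). It encodes a deubiquitinase that acts in the spindle checkpoint and on histone H2B. Its levels were 3.12, 3.86, 4.47 and 3.57 CPM in WT vehicle (T66, T71, T79, T81), 4.03, 3.51, 4.34 and 2.85 in WT BPA (T60, T75, T61, T74) and 4.95, 3.75, 3.11 and 3.77 in WT stigmasterol (T78, T98, T118, T119). In the KO they were 1.55, 1.39 and 1.45 CPM in vehicle (T1, T90, T110), 1.23, 1.63 and 1.60 in BPA (T25, T83, T117) and 1.23, 1.30 and 1.37 in stigmasterol (T10, T15, T93). Every KO library was below every WT library, with 1.63 as the highest KO and 2.85 as the lowest WT value. Usp44 was 2.67-fold lower (log2 fold change -1.42, SE 0.11, edgeR adjusted p = 3.4e-08). The nearest tested genes on either side of Usp44 were not called by edgeR. On the far side Metap2, a methionine aminopeptidase gene 9.97 kb away, had a log2 fold change of -0.01 (SE 0.03) and Vezt, an adherens junction gene, 0.00 (SE 0.04). On the side towards Nr1h4 the netrin gene Ntn4, 84.3 kb away, stood at -0.29 (SE 0.11, edgeR adjusted p = 0.081) and Gm15963 inside it at -0.52 (SE 0.21, edgeR adjusted p = 0.12), and DESeq2 called Ntn4.

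Lta4h and Hal sit side by side on the plus strand with 3.87 kb between them, and their levels moved in opposite directions. Lta4h (93453396 to 93484896) encodes leukotriene A4 hydrolase, which makes the inflammatory lipid leukotriene B4. Hal (93488768 to 93519304) encodes histidine ammonia-lyase, the opening step of histidine breakdown. The 250 bases before each start are shown because these neighbours moved in opposite directions. They come from RefSeq (GRCm38.p6, plus strand, 5′ to 3′; chr10:93453146-93453395 and chr10:93488518-93488767), and capitals mark CG dinucleotides, of which there are 11 and 6.
Lta4h: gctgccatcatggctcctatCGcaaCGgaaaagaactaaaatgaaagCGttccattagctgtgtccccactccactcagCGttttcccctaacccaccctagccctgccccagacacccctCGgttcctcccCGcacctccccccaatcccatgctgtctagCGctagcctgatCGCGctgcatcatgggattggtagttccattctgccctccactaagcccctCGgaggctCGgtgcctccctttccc
Hal: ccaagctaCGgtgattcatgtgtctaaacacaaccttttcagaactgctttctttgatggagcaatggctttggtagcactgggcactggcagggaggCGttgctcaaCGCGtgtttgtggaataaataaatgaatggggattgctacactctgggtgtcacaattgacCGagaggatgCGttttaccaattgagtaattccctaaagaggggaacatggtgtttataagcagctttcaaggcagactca
The promoter table, with windows of 300 bases (250 before and 50 after the start), held 57 of the 81 tested genes in 77 windows. The nuclear receptor half-site AGGTCA, read on both strands, was in 7 of these windows (9.09%) and in 16.3% of all 32851 windows. None of the 16 windows of the 10 called genes in the table held it. The other called genes, Usp44, Rmst, Nedd1 and Cdk17 among them, had no window there. Its inverted repeat with 1 base between, the form FXR binds with RXR, was in 0 of the 77 windows and in 3 of all windows. The median number of CG per window was 20 in the 77 windows and 7 in all windows, so these shares compare windows of unlike composition. A match or its absence describes these letters in these windows only.

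Lta4h was at 47.9, 49.1, 45.0 and 41.0 CPM in WT vehicle (T66, T71, T79, T81), 47.5, 54.2, 45.1 and 54.6 in WT BPA (T60, T75, T61, T74) and 45.1, 58.9, 53.8 and 47.5 in WT stigmasterol (T78, T98, T118, T119). The KO values were 70.4, 70.6 and 65.1 CPM in vehicle (T1, T90, T110), 64.4, 62.4 and 64.6 in BPA (T25, T83, T117) and 66.5, 65.2 and 69.3 in stigmasterol (T10, T15, T93). All KO libraries lay above all WT libraries. The log2 fold change was 0.44 (SE 0.05, edgeR adjusted p = 1.0e-05), a 1.35-fold rise.

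Hal was at 1.69, 1.13, 1.03 and 1.07 CPM in WT vehicle (T66, T71, T79, T81), 1.53, 0.572, 1.8 and 0.723 in WT BPA (T60, T75, T61, T74) and 0.892, 1.65, 1.09 and 1.27 in WT stigmasterol (T78, T98, T118, T119). In the KO it was at 0.542, 0.50 and 0.634 CPM in vehicle (T1, T90, T110), 0.457, 0.402 and 0.295 in BPA (T25, T83, T117) and 0.454, 0.442 and 0.479 in stigmasterol (T10, T15, T93). WT BPA animal T75 alone fell inside the KO range, with T74 just above it, and the highest WT value was that of T61, the library with Alb at 578 CPM. The fall was 2.6-fold (log2 fold change -1.38, SE 0.20, edgeR adjusted p = 1.4e-04), on 12 to 83 reads per library. Without T74 and T75 the log2 fold change was -1.55 (edgeR adjusted p = 3.2e-06). Both were left out after their values were seen to lie near the KO, so a larger difference follows from that choice.

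The cluster beyond Hal held a further pair of called genes. Ccdc38, a coiled-coil gene 21.3 kb from Hal, ran from 0.811 CPM over 1.23 to 1.60 in WT and from 1.39 over 1.71 to 2.06 in KO, a log2 fold change of 0.52 (SE 0.13, edgeR adjusted p = 0.011). 4933408J17Rik, listed as protein coding in the deposited table and as noncoding in RefSeq, was read at 0 to 13 reads in WT and 11 to 22 in KO. Its WT levels were 0.0878, 0.0501, 0.0894 and 0.0266 CPM in vehicle (T66, T71, T79, T81), 0.0196, 0.310, 0 and 0.241 in BPA (T60, T75, T61, T74) and 0.0608, 0.0433, 0.0182 and 0.0295 in stigmasterol (T78, T98, T118, T119).

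The KO levels of 4933408J17Rik were 0.402, 0.355 and 0.355 CPM in vehicle (T1, T90, T110), 0.388, 0.268 and 0.320 in BPA (T25, T83, T117) and 0.499, 0.243 and 0.342 in stigmasterol (T10, T15, T93). The 10 other WT libraries lay below 0.1 CPM, near the value of 3 reads (0.0484 to 0.0884 CPM), while T75 lay inside the KO range and T74 just under it. The log2 fold change was 2.28 (SE 0.40, edgeR adjusted p = 8.7e-04), and without T74 and T75 it was 3.43 (edgeR adjusted p = 1.4e-06). These 2 animals were left out after their values were seen to lie near the KO. The larger difference without them follows from that choice and adds no support. Both genes overlap Snrpf, a core spliceosome gene, and the library kit does not keep the strand, so that reads in the overlap cannot be assigned. Snrpf itself was not called (0.17, SE 0.06, edgeR adjusted p = 0.065).

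**Figure D3:**
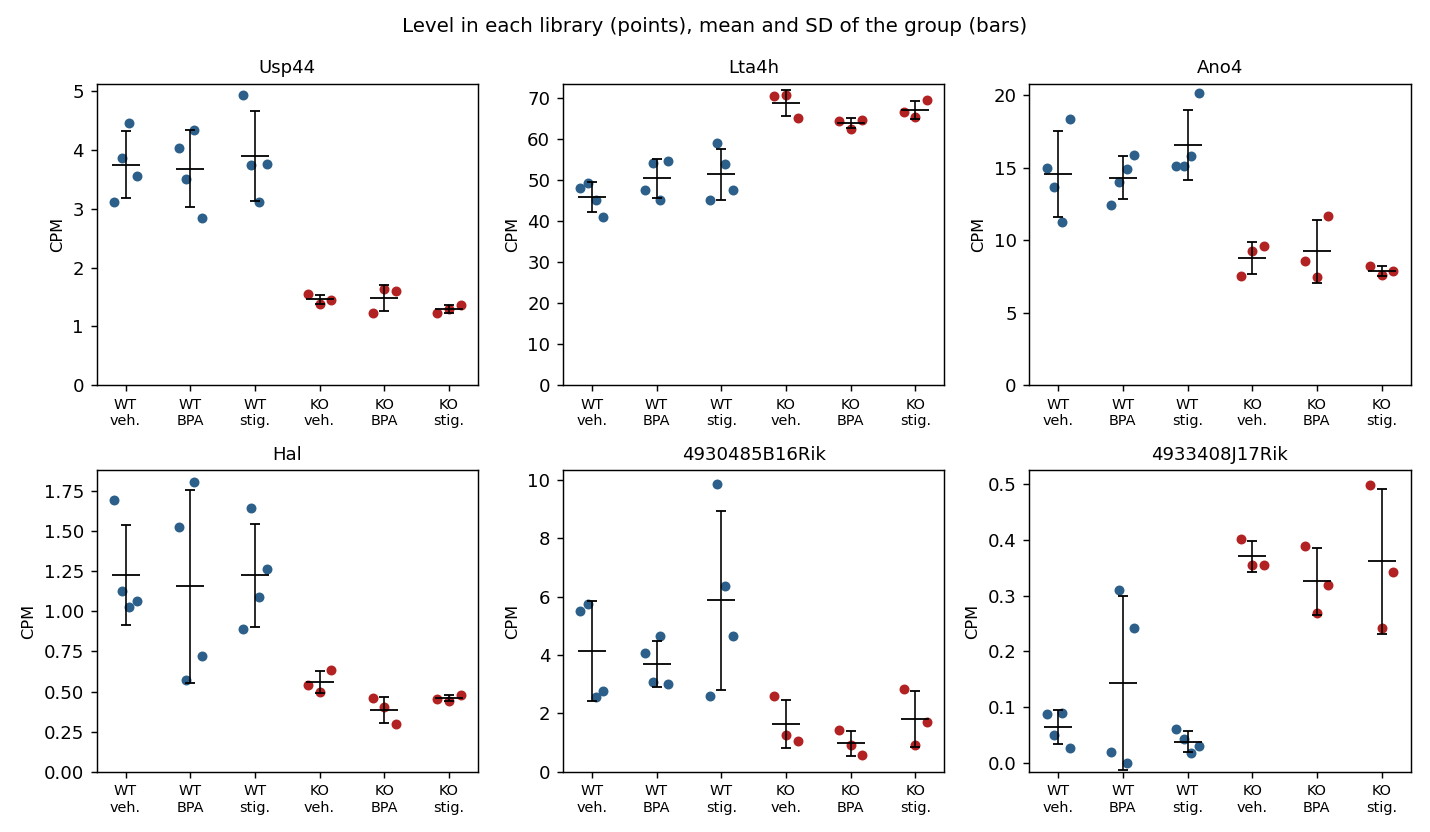
CPM (y axis) of 6 genes in each library, by genotype and treatment (x axis; veh., vehicle; stig., stigmasterol); points are animals, bars the mean and SD of 4 WT or 3 KO animals. Usp44 and Lta4h do not overlap between genotypes, and for 4933408J17Rik the WT BPA animals at 0.310 and 0.241 CPM lie near the KO values.

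4930485B16Rik is the earlier name of Cfap54, a gene of the central apparatus of motile cilia and flagella, and lies 3.24 Mb from Nr1h4. It ran from 2.548 CPM over 4.36 to 9.87 in WT and from 0.590 over 1.26 to 2.84 in KO. The KO range held 3 WT libraries, and the level was 3.13-fold lower (log2 fold change -1.65, SE 0.28, edgeR adjusted p = 6.1e-04). Nedd1, which brings γ-tubulin rings to the centrosome, lies 53.2 kb from it and differed far less, at -0.14 (SE 0.03, edgeR adjusted p = 0.0078), with 46.5 CPM ± 2.02 (SD, n = 9) in KO and 51.3 ± 2.26 (SD, n = 12) in WT.

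Slc25a3, the phosphate carrier of mitochondria, and the small nucleolar RNA Gm24119 share a locus 1.58 Mb from Nr1h4. Gm24119 lies inside Slc25a3 and ran from 0.365 CPM over 0.663 to 0.802 in WT and from 0.951 over 1.09 to 1.19 in KO, with no overlap. Its log2 fold change was 0.78 (SE 0.12, edgeR adjusted p = 4.0e-04), and that of Slc25a3 was 0.12 (SE 0.03, edgeR adjusted p = 0.010). Reads of the pair cannot be fully separated without strand or transcript structure; 42 of the 81 tested genes overlap another gene. Tmpo, a lamina-associated protein gene 23.5 kb farther on, was lower by -0.27 (SE 0.07, edgeR adjusted p = 0.014), and Cdk17, a PCTAIRE kinase gene, by -0.22 (SE 0.06, edgeR adjusted p = 0.022). Gm24119, Lta4h and Usp44 were the 3 of 81 genes (3.70%) without overlap between 12 WT and 9 KO libraries, beside 1.05% of all genes.

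Rmst, a long noncoding RNA best known from neural progenitors, and Gm27544, which lies inside it, varied with single libraries. Rmst was at 0.922, 0.451, 1.52 and 1.86 CPM in WT vehicle (T66, T71, T79, T81), 1.33, 2.91, 1.43 and 1.16 in WT BPA (T60, T75, T61, T74) and 1.03, 1.04, 1.09 and 1.15 in WT stigmasterol (T78, T98, T118, T119). In the KO it was at 3.09, 1.16 and 2.66 CPM in vehicle (T1, T90, T110), 0.960, 2.71 and 2.51 in BPA (T25, T83, T117) and 4.65, 1.1 and 8.36 in stigmasterol (T10, T15, T93). The 6 KO libraries above 2 CPM were those with Cdh16 at 10 CPM or more, and T93 and T10, which had the highest Cdh16 (203 and 86.0 CPM), had the highest Rmst.

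The log2 fold change of Rmst was 1.12 (SE 0.32, edgeR adjusted p = 0.025) with all libraries and -0.06 (adjusted p = 0.96) without the 9 libraries with Cdh16. Without T93 alone the adjusted p was 0.069, and the call also ended without T1 or T83 and with limma-voom (adjusted p = 0.090). Gm27544 changed likewise, from 1.25 (SE 0.30, edgeR adjusted p = 0.010) to 0.13 (adjusted p = 0.93). Over the 7 marker genes of epididymis and efferent ducts the summed level was 53.8 to 142 CPM in WT and 101 to 617 in KO, and 6 of the 7 were called higher in the KO. Their part in the difference of Rmst was not tested beyond this.

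**Figure D4:**
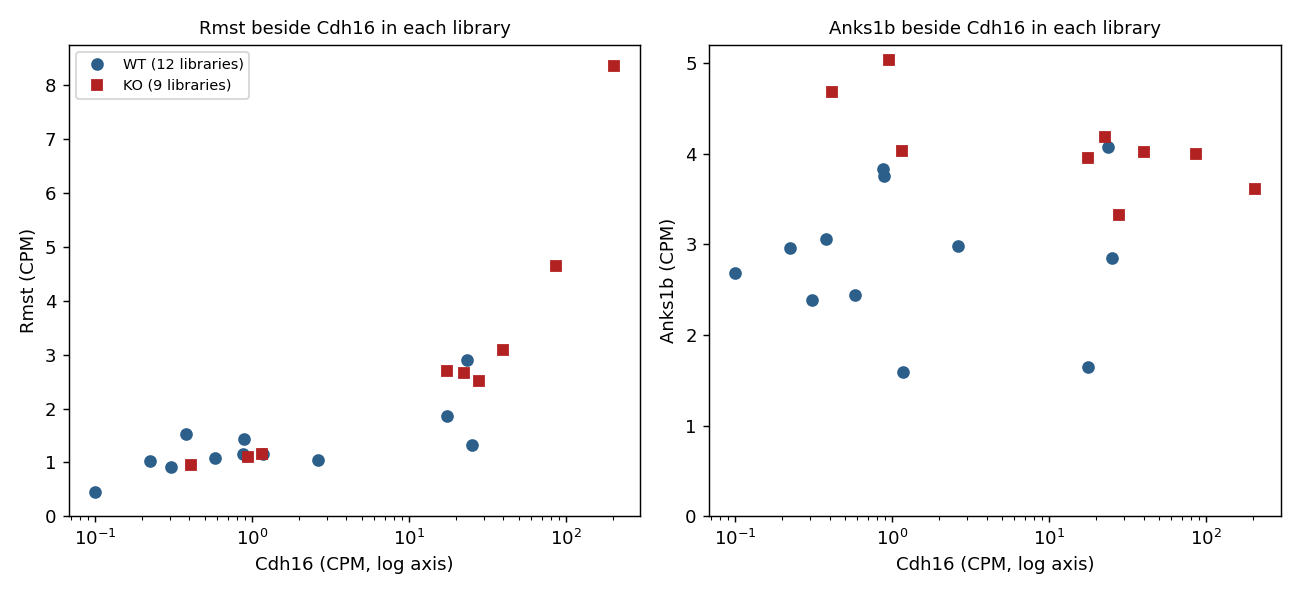
CPM of Rmst (left) and Anks1b (right) on the y axis against CPM of Cdh16 (x axis, log scale) in 12 WT and 9 KO libraries. Rmst is highest, at 8.36 and 4.65 CPM, in the libraries with Cdh16 at 203 and 86.0 CPM, whereas Anks1b in those libraries lies among the other KO values.

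The log2 fold changes of most other called genes changed less when these libraries were left out. Without the 9 libraries with Cdh16, 9 WT and 3 KO libraries remained, with 1 KO animal per treatment that is assumed to vary like the other groups. In that fit 17 of the 18 called genes kept their direction and 16 kept at least 0.75 of their log2 fold change. The remaining libraries are among those from which the 18 were called, so keeping direction and size is partly built in. Only Usp44 (-1.54, edgeR adjusted p = 0.0083) and Ano4 (-0.84, edgeR adjusted p = 0.015) were still called, and over all genes the share called was 1.23%. Lta4h stood at 0.42 (adjusted p = 0.075), Hal at -1.44 (adjusted p = 0.098) and 4930485B16Rik at -2.0 (adjusted p = 0.073) by edgeR.

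Each treatment gives the genotype difference in animals of its own. In vehicle, 3 of 81 genes were called (3.70%, beside 2.92% of all genes): Usp44 (-1.36), Lta4h (0.59) and Ano4 (-0.73). In BPA, 2 were called (2.47%, beside 0.859%): Usp44 (-1.31) and Hal (-1.58). In stigmasterol, 17 were called (21%, beside 7.21%), 5 proximal and 12 distal. Besides 14 of the genes above these were Gnptab (-0.40, SE 0.08, edgeR adjusted p = 0.0053), whose product marks enzymes for the lysosome, the noncoding RNA Gm26546 that overlaps it (-1.26, SE 0.35, edgeR adjusted p = 0.033) and Nt5dc3 (-0.32, SE 0.07, edgeR adjusted p = 0.014).

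These counts rest on few animals. For the fits with libraries left out, the share of all genes called within each treatment is not given here. A change in the window therefore cannot be told from a change over all genes. The stigmasterol count was 5 without KO animal T93, 7 without T10, 8 without WT animal T118, 9 without T119 and 11 without KO animal T15. Usp44, Ano4 and Gnptab were called in each of these fits. In vehicle, Ano4 was not called without T81, T1 or T90 (highest adjusted p = 0.11), and in BPA Hal was not called without any 1 of 8 libraries, T61 with high Alb among them (highest adjusted p = 0.21, without T117). Without T74 and T75, which were left out after their values were seen, the BPA count was 5.

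All 18 genes called in the averaged comparison had the same sign in the 3 treatments, a property the averaging favours. Of all 32 distal genes 68.8% did (22 genes), of all 49 proximal genes 34.7% (17) and of all genes tested 43.8%. Across genes, Pearson's r between treatments over the distal genes was 0.856 for vehicle and BPA, 0.951 for vehicle and stigmasterol and 0.813 for BPA and stigmasterol. Over the proximal genes the same values were 0.428, 0.517 and 0.554, and over all genes 0.506, 0.678 and 0.477. The treatments share no animals, but genes are not independent replicates and these values are descriptions.

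**Figure D5:**
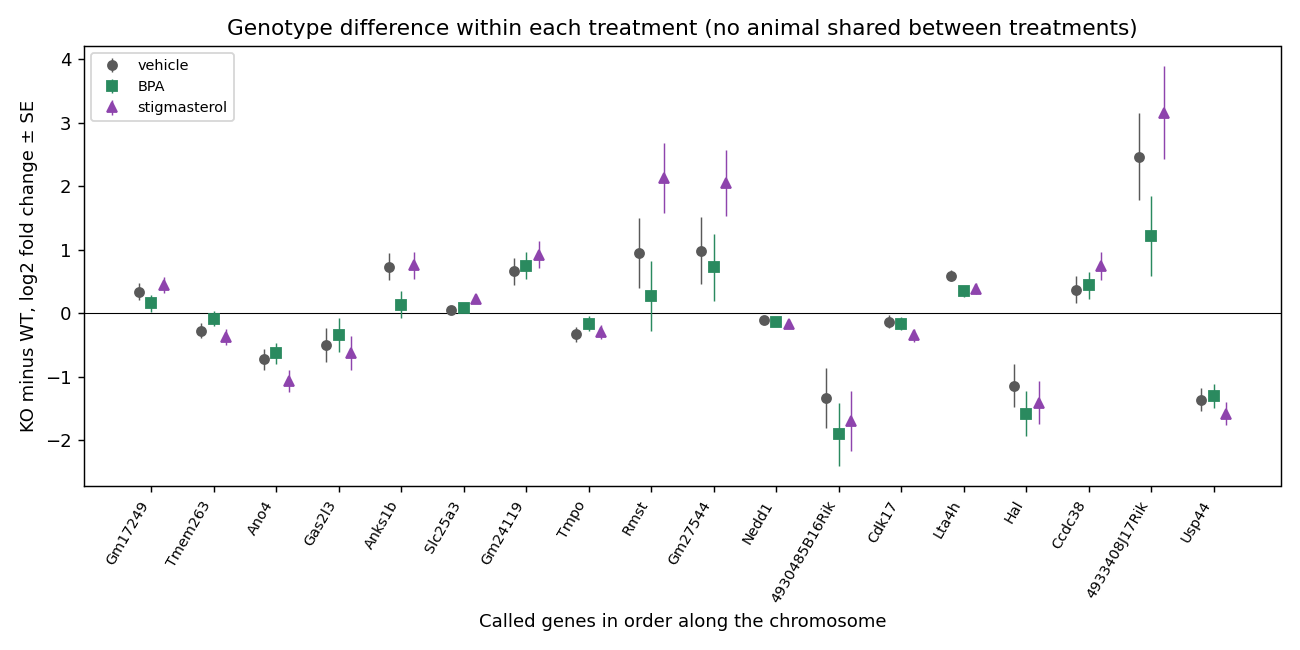
Log2 fold change, KO minus WT, with its standard error (y axis) within vehicle, BPA and stigmasterol for the 18 genes called in the averaged comparison, in order along the chromosome (x axis). Usp44 lies between -1.58 and -1.31 in the 3 treatments, and Rmst between 0.27 and 2.13.

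The treatments themselves called none of these genes. With edgeR, 0 of 81 genes were called for BPA in WT (0% of all genes), stigmasterol in WT (0.00494%), BPA in KO (0.0148%) or stigmasterol in KO (0%). At an unadjusted p under 0.05 the counts were 11, 7, 0 and 4 (13.6%, 8.64%, 0% and 4.94%), beside 18.8%, 8.26%, 4.31% and 3.85% of all genes. The limma-voom fit called 0 in each, and DESeq2 called 2, Apaf1 and Ccdc53, for BPA in WT and 0 in the others. Without WT vehicle animal T79, edgeR called 3 for BPA in WT: Apaf1, the apoptosome scaffold (0.36, adjusted p = 0.029), Btbd11 (0.64, adjusted p = 0.027) and Ccdc53 (-0.40, adjusted p = 0.024). The share of all genes called in that fit and with DESeq2 is not given here. These counts therefore cannot be read as particular to the window.

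The interaction of genotype with treatment was called for 0 of 81 genes with BPA (0.0148% of all genes) and 0 with stigmasterol (0.00987%) by edgeR. The counts at an unadjusted p under 0.05 were 2 and 7 (2.47% and 8.64%), beside 8.83% and 9.16% of all genes. The limma-voom fit called 0 and 0, and DESeq2 called 0 and 2 (Gnptab and Nt5dc3), with the share of all genes in those fits not given here. Gnptab had the smallest edgeR p of the 81 genes in the stigmasterol interaction, with a log2 difference of -0.52 (SE 0.11, adjusted p = 0.15). Gnptab stood at 89.7, 104, 92.5 and 99.5 CPM in WT vehicle and 102, 120, 120 and 126 in WT stigmasterol, against 108, 101 and 105 in KO vehicle and 85.1, 83.5 and 96.7 in KO stigmasterol. Of these, 3 of 4 WT stigmasterol values lay above and 2 of 3 KO stigmasterol values below the range of the vehicle animals.

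The role groups were drawn up with earlier results of these data known, and no difference between them was tested; their counts stand beside the 13.9% of all genes called, 7.07% lower and 6.85% higher. Of 8 genes of cell cycle, centrosome and nuclear envelope, 5 were called lower (Usp44, Tmpo, Nedd1, Gas2l3 and Cdk17) and 0 higher, with a median log2 fold change of -0.18 beside 0.013 over all genes. Parpbp, Nup37 and Actr6 of that group stood at 0.13, 0.08 and 0.07 and were not called. Of the 8 Sertoli cell markers 6 were called lower, with a summed level of 1632 to 2746 CPM in WT and 1444 to 1750 in KO, and the part of this in the group's values was not tested; of 7 germ cell markers 0 were called. In metabolism and transport, Lta4h and Slc25a3 were called higher and Hal lower of 9 tested.

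In the neuronal group Anks1b and Rmst were called higher and Ano4 lower of 6 tested. No gene of 4 other groups was called by edgeR. Growth factor and matrix genes gave 0 of 4: Igf1 stood at 0.00 (SE 0.09), the metalloproteinase inhibitor Timp3 at 0.00 (SE 0.11) and the netrin Ntn4 at -0.29 (SE 0.11, adjusted p = 0.081). Apoptosis, autophagy and mitophagy gave 0 of 4, with Apaf1 at 0.14 (SE 0.06) and Ikbip at -0.25 (SE 0.08, adjusted p = 0.055). Transcription gave 0 of 9, with the nuclear receptor Nr2c1 at 0.02 (SE 0.06) and the ETS factor Elk3 at 0.01 (SE 0.09), and folding, trafficking and junctions 0 of 8, with the endoplasmic reticulum chaperone Hsp90b1 at -0.10 (SE 0.06). DESeq2 called Ikbip, Ntn4, Snrpf and Fgd6 of these groups, in a fit that called 17.1% of all genes.

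The tested genes not called make up most of the window. Of these 63 genes, 33 had a log2 fold change above 0 and 30 below, and 49 lay within 0.2 of 0. An unadjusted p under 0.05 in the edgeR test was found for 11, 4 of 45 proximal and 7 of 18 distal genes. The like share among all genes not called is not given here. With called genes included, the share was 35.8% of the 81 genes, beside 27.8% of all genes tested. Over the 63 genes not called, the median SE was 0.10 on the proximal and 0.09 on the distal side. The lowest distal value was that of the noncoding gene Gm15963 (-0.52, SE 0.21, edgeR adjusted p = 0.12), and the highest was that of Fgd6, an activator of the GTPase Cdc42 (0.27, SE 0.10, edgeR adjusted p = 0.070). On the proximal side the noncoding gene Gm16280 was highest (0.36, SE 0.17, edgeR adjusted p = 0.18).

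The 36 genes with too few reads to test included 6 microRNA genes, 5 small nuclear RNA genes and 6 protein-coding genes. Amdhd1, whose product acts in the same histidine pathway as Hal and which lies between Hal and Ccdc38 on the chromosome, had 97 reads in all, 59 of them in WT BPA animal T61, the library with high Alb. Pmch, which encodes the hypothalamic peptide melanin-concentrating hormone, had 129 reads in all and at most 13 in a library.

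On the deposited signal per kb of gene length, the scale on which genes can be compared, the tested genes around Nr1h4 had a median of 391.9 beside 325.7 for all genes tested. Hsp90b1 was highest at 34000 ± 4512 (SD, n = 21), and Slc25a3 followed among the genes named here at 10310 ± 594 (SD, n = 21). Igf1 stood at 3914 ± 646 and Lta4h at 1190 ± 205 (SD, n = 21 each). Usp44 at 41.0 ± 19.1, Hal at 24.1 ± 13.0 and 4933408J17Rik at 4.61 ± 3.77 (SD, n = 21 each) were among the low ones. The called genes thus spanned levels from near the lowest tested (2.68) to that of Slc25a3.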

How the data were processed

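Per the labels' protocols, the kit was TruSeq RNA. CASAVA 1.8.2, TopHat2 2.0.10, Bowtie and Bowtie2 2.1.0 and the build mm10 appear in the submitters' processing notes; for the read counter, annotation and reads with several matches, nothing is stated there. The authors deposited raw read counts per gene, used in every test, and a signal normalized per library and divided by gene length in kb, used only for levels between genes. Counts were fitted with edgeR 4.0.16 (R 4.3.3): TMM, filterByExpr by group (minimum count 10, minimum total 15), 1 mean per group, two-sided quasi-likelihood F tests, Benjamini-Hochberg adjustment over all genes tested. SE is |log2 fold change| over the root of F. CPM are after TMM. The fit was tested on simulated data. Alternatives used limma 3.58.1 (voom), DESeq2 1.42.0, other filters and size factors, an additive model and libraries left out. Chi-square per degree of freedom between the 27 pairs of animals within groups was 9.19 to 75.8, so no replicate of a group was a repeat of another. Promoters are GRCm38.p6 (mm10), distances run between nearest gene edges, and 114 of the genes matched GENCODE by ID. The text names called genes (at most 24 averaged, 10 per other comparison), the 3 nearest tested and the farthest called per side, and examples of each role group. The window, role groups and markers were chosen with earlier results of these data known; leaving out T74 and T75 was chosen after seeing the data. The values of 1 gene of the window are not reported here.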

Additional observations from a re-analysis of the deposited data

Results flagged for a closer look

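Of 66 gene and group pairs with 4 animals that were examined, 4 had 1 animal set far from the other 3 relative to the group's range; chance alone flags about 5% of such groups. Ano4 was at 20.1 CPM in WT stigmasterol animal T119, beside 15.1 to 15.8 in the others. Rmst was at 2.91 CPM in WT BPA animal T75, beside 1.16 to 1.43 in the others, and T75 is 1 of the 3 WT libraries with Cdh16 at 10 CPM or more. In WT vehicle animal T66, Hal was at 1.69 CPM beside 1.03 to 1.13 in the others, and 1500026H17Rik was at 1.30 CPM beside 1.58 to 1.63.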

How the results depend on the processing

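With genotype averaged, 18 genes were called and 16 to 22 when each of 21 libraries was left out in turn, 14 distal (13 to 17) and 4 proximal (2 to 6; 2 without T119). Of the 18, 15 were called in every such fit. The share of all genes called in these fits ran from 10.8% (without T61) to 16% (without T98). Other size factors, no filter, a stricter filter, limma-voom, DESeq2, an additive model, and leaving out T61 or both T74 and T75 kept the count within 1.5 times. With the 9 libraries of high Cdh16 (10 CPM and up) left out it was 2, with 1 proximal and 1 distal, and Rmst turned to -0.0556; that fit has fewer samples. Vehicle calls, 3, were 2 to 6 with 1 library left out (6 without T79, 5 without T75), 8 with DESeq2, 0 without the Cdh16 libraries and 5 without T74 and T75. BPA calls, 2, were 1 to 3 with 1 library left out, 1 with the mean of at least 1 CPM, 1 with limma-voom, 5 with DESeq2, 0 without the Cdh16 libraries, 1 without T61 and 5 without T74 and T75. Stigmasterol calls, 17, were 5 to 17 with 1 library left out, 11 with the stricter filter, 0 without the Cdh16 libraries and 4 when only its 2 groups were fitted. Calls over the 4 treatment contrasts were 0 to 3 with 1 library left out and 2 with DESeq2, and over the 2 interactions 0 in every such fit and 2 with DESeq2. The cause of these changes was not tested. For the calls within treatments, the treatment contrasts and the interactions, the share of all genes called under each setting is not given here. No paired analysis was possible because the animal numbers are not shared between groups. Genes under about 1 CPM rest on few reads.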

Other observations

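Beyond the window on the distal side, 4 of the 23 tested genes at 5 to 10 Mb were called (17.4%), near the 13.9% of all genes. On the proximal side 16 of 160 were called at that distance (10%), and these are not named here. The 4 distal genes were named after their values were seen: Plxnc1, a semaphorin receptor (log2 fold change -0.39, edgeR adjusted p = 0.037), Cradd, an adaptor of caspase activation (-0.31, edgeR adjusted p = 0.018), Nudt4, a diphosphoinositol phosphohydrolase (-0.28, edgeR adjusted p = 0.0052), and Ccer1 (1.26, edgeR adjusted p = 0.032).

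Among the 12 WT libraries, the number of the 18 called genes whose level lay inside the KO range ran from 2 to 9. It was 9 for T75, 7 for T79 and 6 each for T61, T74 and T98. In T74, Nr1h4 was at 0.241 CPM, the lowest WT value, and in T75 at 0.692 CPM.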
